A study of Danio rerio with 6 samples.

Results

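The Notch pathway genes and the her, hes and hey genes of zebrafish were examined in whole larvae at 72 hours post fertilization. Members were taken by gene symbol: the Notch receptors notch1a, notch1b, notch2 and notch3, the Delta and Jagged ligands, the fringe genes, mib1, numb and numbl, the rbpj and maml genes, and every her, hes and hey gene with a number in its name or beginning with hey. Rows of the deposited table that share a symbol apart from a trailing number were summed, which gave 48 members among 37685 symbols. The rule reads symbols alone. Of the 48 members, 40 had enough counts to be tested.

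Poly-A RNA was sequenced from 3 libraries of AB strain larvae that had received the morpholino GJB2-MO by injection as 1-cell embryos, and from 3 control libraries of AB larvae labelled as wild type. GJB2 is a gap junction gene whose human form is known for hereditary deafness, and a morpholino is a synthetic oligonucleotide that blocks translation or splicing of its target RNA. Larvae given a control oligonucleotide were not analysed here, so injection and knockdown cannot be told apart. The number of larvae per library and their clutches are not stated in the labels. The p-values therefore rest on the spread among these 6 libraries, part of which may be technical. Total counts were 15720292 to 19743658 in the morpholino libraries and 14582030 to 16725570 in the controls, and a level of 1 CPM (counts per 1e+06 counts, after TMM scaling of the library totals) rested on 15.9 to 19.2 reads in the morpholino libraries and 14.5 to 16.8 in the controls. The 48 members together took 0.0764% to 0.0803% of the counts in the morpholino libraries and 0.0825% to 0.0853% in the controls. The injected oligonucleotide is shown because it is the only difference in treatment between the groups that the labels give. It is printed 5′ to 3′, with the capitals marking the complement of an ATG codon:
GJB2-MO: taaagtgctccccaactCATcctgt

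Notch signalling passes between touching cells. A Delta or Jagged ligand on one cell, taken up with the help of the ubiquitin ligase Mib1, pulls on a Notch receptor on its neighbour, and the receptor is then cut so that its intracellular domain enters the nucleus. There it joins the DNA-binding protein Rbpj and a Mastermind coactivator and switches on some of the her, hes and hey genes. These genes encode repressors of the basic helix-loop-helix class. In zebrafish the pathway is known for holding neural progenitors back from differentiation, for the clock of the somites, for arterial identity and for the choice between hair cells and supporting cells in the ear.

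One of the 40 tested members passed the test, and it was a receptor. notch1a was lower in morpholino larvae, the other receptors lay below their control means without passing, and no ligand, fringe gene, adaptor, nuclear cofactor or her, hes or hey gene was called in either direction. Counts were compared with the edgeR quasi-likelihood test on the whole table of summed symbols, with Benjamini-Hochberg adjustment over all 22247 symbols tested and a call at an adjusted p under 0.05. Among all of these symbols, 2.88% were called higher and 3.31% lower. Among members, 0 of 40 were called higher and 1 of 40 lower, which is 2.5% and near the background. At an unadjusted p under 0.05 in edgeR, 2 members were higher and 6 lower, together 20% of 40, against 21.7% of all symbols. DESeq2 also called 0 members higher and 1 lower, and over all 30784 symbols fitted it called 616 higher and 761 lower. The median log2 fold change of morpholino over control was -0.05 over the 40 members and 0.01 over all symbols.

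**Figure D1:**
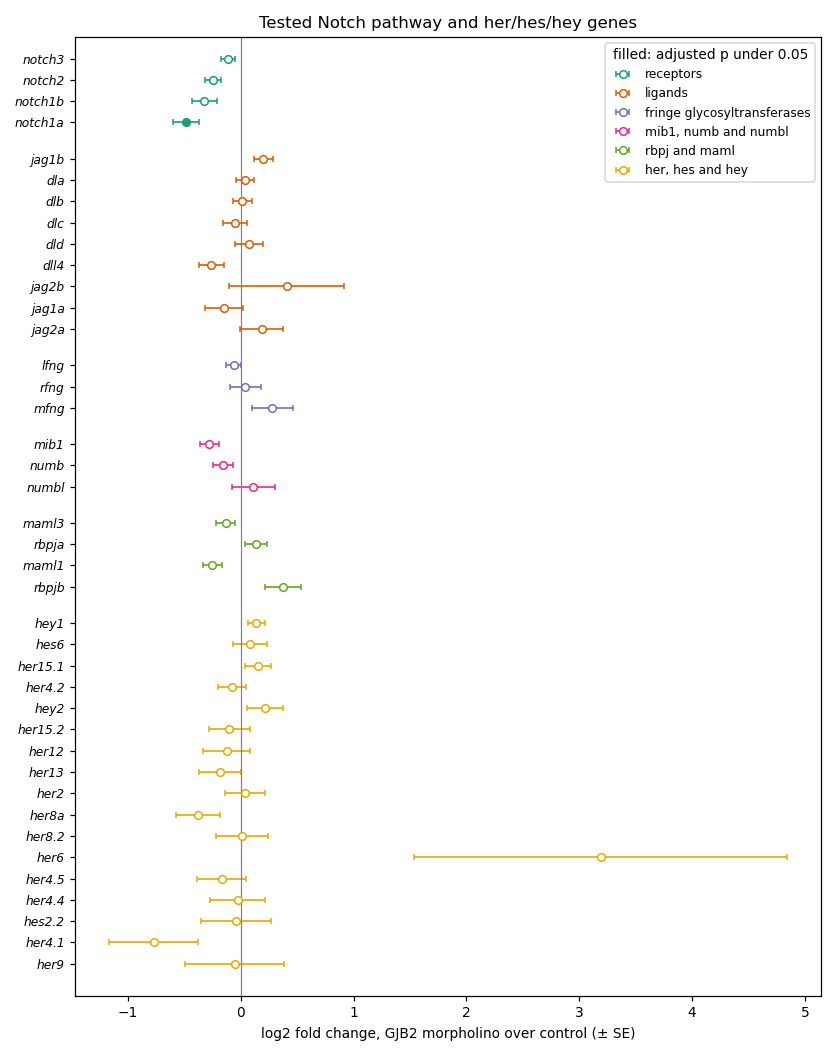
Log2 fold change of each tested member, morpholino over control, with its standard error, grouped by role; the filled point passed an adjusted p of 0.05. Only notch1a is filled, at -0.49, and the wide bar of her6 belongs to a log2 fold change of 3.19 that a single morpholino library carried.

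Receptors. notch1a, one of the pair of zebrafish receptors that correspond to the single NOTCH1 of mammals, lies on the minus strand of chromosome 21 from 4766244 to 4849029 (GRCz11, as in the deposited table). It stood at 29.0, 20.8 and 25.3 CPM in morpholino libraries 1 to 3, against 35.4, 32.7 and 37.2 CPM in control libraries 1 to 3. Every morpholino library lay below every control library. The log2 fold change was -0.49 ± 0.12 (SE), a decrease of the mean to 25.0 ± 4.09 CPM in morpholino larvae, against 35.1 ± 2.30 CPM in controls (SD, n = 3 each), with an edgeR adjusted p of 0.0321. The call was lost without any one of morpholino libraries 2 and 3 and the 3 controls (adjusted p 0.0539 to 0.115, log2 fold change -0.54 to -0.37), and held without morpholino library 1 (adjusted p = 0.0189).

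notch2, a receptor known from kidney, bile duct and skeletal development in mammals, had 94.8, 81.8 and 86.9 CPM in the morpholino libraries and 104, 101 and 107 CPM in the controls. The groups did not overlap, but the difference did not pass (log2 fold change -0.24 ± 0.07, edgeR adjusted p = 0.0629). notch1b, the duplicate of notch1a, had 28.0, 30.2 and 27.5 CPM in the morpholino libraries and 40.1, 29.6 and 37.6 CPM in the controls. Control library 2 lay within the range of the morpholino libraries, and the log2 fold change of -0.32 ± 0.11 did not pass (edgeR adjusted p = 0.112); without that control library it was -0.45 and passed (edgeR adjusted p = 0.0341). notch3, a receptor of mural cells and neural progenitors, had 93.2, 94.0 and 90.1 CPM in the morpholino libraries against 99.3, 94.3 and 106 CPM in the controls. Its groups were separated by a narrow gap, and its log2 fold change was -0.11 ± 0.07 (edgeR adjusted p = 0.355), with a 95% interval from -0.26 to 0.03.

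Over the receptors, 4 of 4 fold changes were negative, with a median of -0.28, and 3 of 4 had no overlap between groups with the morpholino libraries below. Of all tested symbols 14.1% showed that pattern, and 13.7% the opposite one. The receptors' TPM, transcript levels scaled by row length so that genes can be compared, summed to 45.4, 39.9 and 42.6 in morpholino libraries 1 to 3 and to 50.3, 47.6 and 54.0 in control libraries 1 to 3. These are whole larvae, so fewer cells that express a receptor and less RNA per cell cannot be told apart. In TPM the order of the receptors was the same in both groups. notch3 was the most abundant, at 18.7 ± 0.518 TPM in morpholino larvae and 20.5 ± 1.44 TPM in controls, and notch2 followed at 13.9 ± 1.46 and 16.7 ± 0.643 TPM. notch1b stood at 5.77 ± 0.102 TPM in morpholino larvae and 7.33 ± 1.07 TPM in controls, and notch1a at 4.27 ± 0.824 and 6.06 ± 0.440 TPM. Within every library, morpholino or control, notch1b stood above notch1a. Across the control libraries their ranges overlapped, while in the morpholino libraries every notch1b value lay above every notch1a value.

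**Figure D2:**
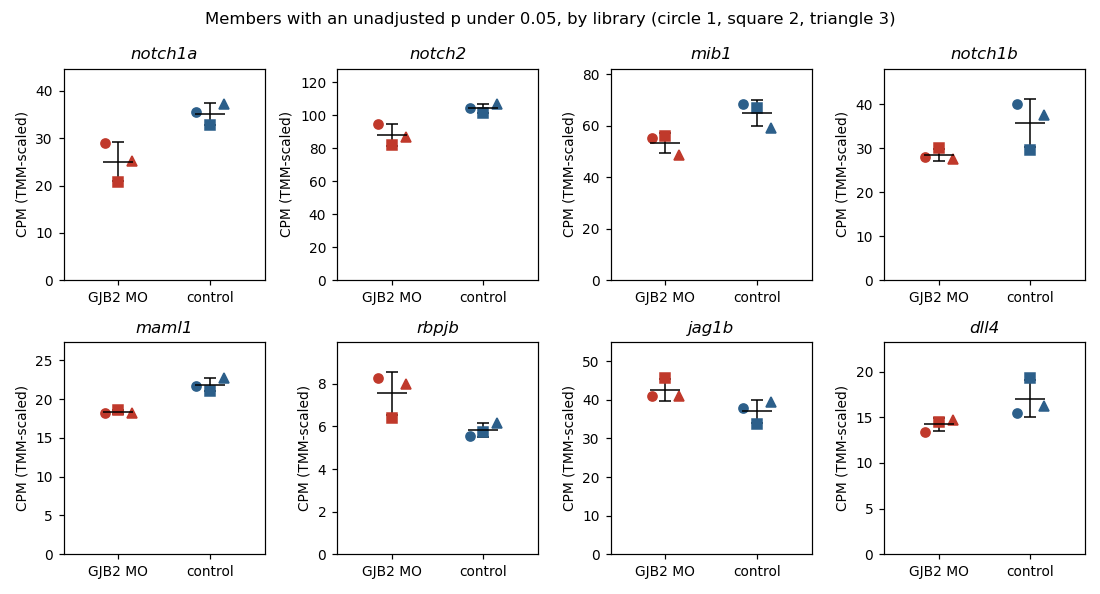
TMM-scaled CPM of the 8 members with an unadjusted p under 0.05, one point per library, with the mean and SD of each group; circles, squares and triangles are libraries 1, 2 and 3. For notch1a the morpholino libraries lie between 20.8 and 29.0 CPM and the controls between 32.7 and 37.2 CPM, while for notch1b control library 2 sits among the morpholino libraries.

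Markers of dividing cells were also lower in morpholino larvae. The summed level of neural progenitor markers was lower too, but most genes of that list did not pass, and such a sum is weighted towards its most abundant genes. Both lists were chosen with earlier results of these data known. Over all symbols edgeR called 2.88% higher and 3.31% lower, and 21.7% had an unadjusted p under 0.05 in either direction. Of 15 proliferation genes tested, 11 fell and none rose in edgeR (13 lower and 0 higher at an unadjusted p under 0.05, and 11 lower and 0 higher by DESeq2), with a median log2 fold change of -0.41 and a summed level of 669 to 708 TPM in morpholino libraries against 806 to 925 TPM in controls. kif20a, a mitotic kinesin, had a log2 fold change of -0.56 ± 0.09, tpx2, a spindle assembly factor, -0.42 ± 0.07, and top2a, a DNA topoisomerase, -0.39 ± 0.07. Of 16 neural progenitor and radial glia genes, 1 fell in edgeR (1 higher and 3 lower at an unadjusted p under 0.05, and 0 higher and 1 lower by DESeq2), with 5 of 16 fold changes positive, a median of -0.10 and a summed level of 1768 to 1818 TPM in morpholino libraries against 1938 to 2049 TPM in controls. It was fabp7a, a fatty acid binding protein of radial glia, at 235 ± 1.67 CPM in morpholino larvae and 302 ± 10.1 CPM in controls (log2 fold change -0.36 ± 0.06, edgeR adjusted p = 0.0059). In the same list vim went the other way without passing, at 132 ± 12.2 CPM in morpholino larvae and 111 ± 2.54 CPM in controls (log2 fold change 0.25 ± 0.07, edgeR adjusted p = 0.0691). The part of these marker lists in the receptor values was not tested.

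Ligands. None of the 9 ligand symbols was called, and 6 of 9 fold changes were positive, with a median of 0.04. jag1b, one of the Jagged1 genes of zebrafish, known for craniofacial patterning, had 40.9, 45.8 and 40.9 CPM in the morpholino libraries against 37.9, 33.8 and 39.5 CPM in the controls. Every morpholino library lay above every control, but the log2 fold change of 0.20 ± 0.09 did not pass (edgeR adjusted p = 0.203). dll4, a ligand known for its role in arteries and vessel sprouting, had 13.4, 14.5 and 14.8 CPM in the morpholino libraries against 15.5, 19.4 and 16.3 CPM in the controls. Its groups did not overlap either, in the other direction, and its log2 fold change of -0.26 ± 0.11 did not pass (edgeR adjusted p = 0.21). In edgeR 3.31% of all symbols were called lower, and 21.7% had an unadjusted p under 0.05 in either direction. Of 17 endothelial genes 1 fell, ephb4a, a venous receptor (log2 fold change -0.34 ± 0.08, edgeR adjusted p = 0.0341). At an unadjusted p under 0.05 in edgeR 2 of the list were higher and 3 lower, DESeq2 called 0 higher and 1 lower, and the summed level of that list overlapped between groups, at 189 to 204 TPM in morpholino libraries and 198 to 217 TPM in controls; its part in the dll4 values was not tested.

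The Delta genes of neural progenitors and somites had log2 fold changes between -0.05 and 0.04, none of which passed. dla had 39.5, 35.4 and 38.9 CPM in the morpholino libraries and 38.1, 38.3 and 34.6 CPM in the controls, with a log2 fold change of 0.04 ± 0.08 and a 95% interval from -0.14 to 0.21. dlb had a log2 fold change of 0.02 ± 0.08 with an interval from -0.17 to 0.20, and dlc, which is known for the somite clock, -0.05 ± 0.11 with an interval from -0.29 to 0.19. All 3 intervals lie within a 1.5-fold change in either direction.

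The symbol dld needs care. In zebrafish it is used for deltaD, but the deposited table describes this row, on chromosome 13 from 6075572 to 6081803, as D-lactate dehydrogenase. The RefSeq table of the GRCz12tu assembly places the symbol on another chromosome, but also lists dld as a synonym of a gene on chromosome 13. Which gene was counted is therefore uncertain. The row had 14.5, 19.2 and 15.9 CPM in the morpholino libraries and 14.6, 16.6 and 16.0 CPM in the controls (log2 fold change 0.07 ± 0.12, edgeR adjusted p = 0.785).

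The remaining Jagged genes were low. jag1a had a log2 fold change of -0.15 ± 0.16 and jag2a one of 0.19 ± 0.19. jag2b varied within both groups, from 5.69 to 13.9 CPM in morpholino libraries and from 3.67 to 9.15 CPM in controls, and its log2 fold change of 0.41 ± 0.51 had an interval from -0.91 to 1.73. By level, dla and dlb were the highest ligands at 15.2 ± 1.39 and 14.3 ± 0.753 TPM in morpholino larvae and 15.1 ± 0.697 and 14.4 ± 0.343 TPM in controls, and the values of these neighbours overlapped. jag1a had the lowest mean, at 1.57 ± 0.0749 TPM in morpholino larvae and 1.77 ± 0.295 TPM in controls, and in the controls its values overlapped those of jag2a and jag2b.

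**Figure D3:**
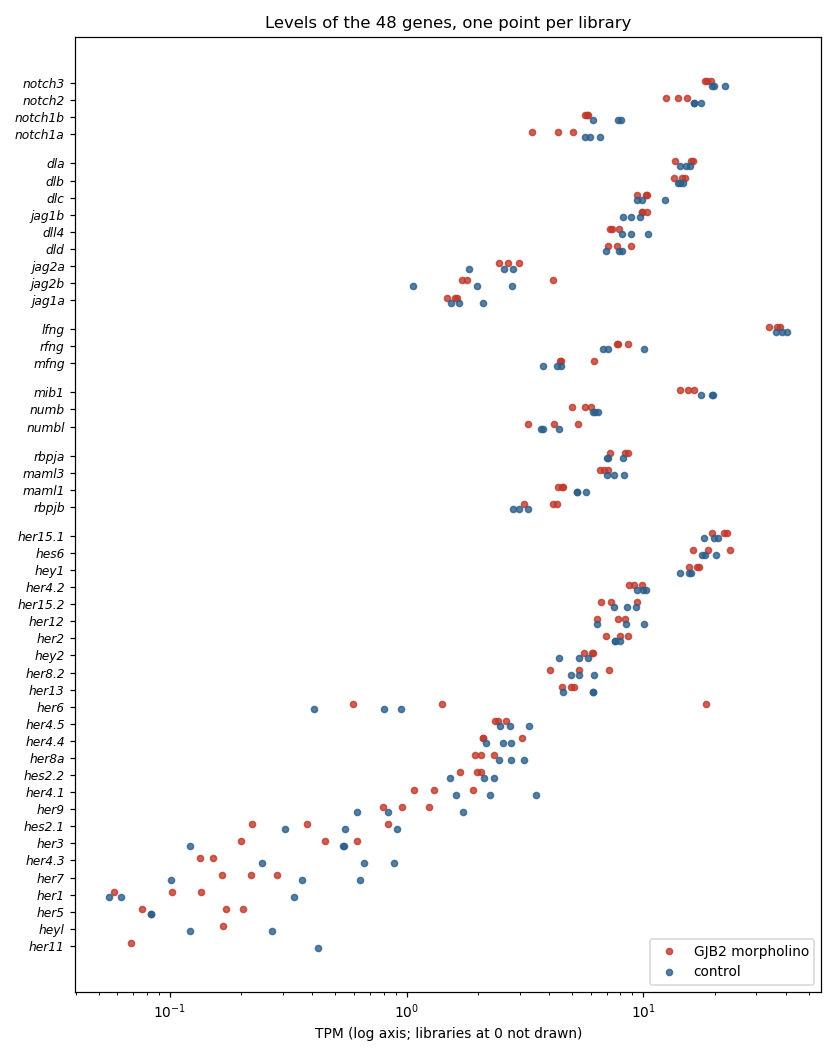
TPM of all 48 members on a log axis, one point per library, with morpholino libraries above controls within each gene and libraries at 0 not drawn. lfng is the highest member, between 34.0 and 37.9 TPM in morpholino libraries and between 36.2 and 40.6 TPM in controls, and her6 has a single morpholino library at 18.3 TPM far from the others.

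Fringe genes. The fringe enzymes add a sugar to Notch receptors in the Golgi and change which ligands they answer. None of the 3 was called. lfng, which had the highest mean TPM of the 48 members, had 69.2, 66.2 and 67.4 CPM in the morpholino libraries against 68.2, 74.3 and 69.5 CPM in the controls. These ranges overlapped, and the log2 fold change of -0.06 ± 0.07 had an interval from -0.21 to 0.08. rfng had a log2 fold change of 0.04 ± 0.14, with control library 3 at 22.9 CPM above the other 5 libraries, which lay between 15.6 and 19.9 CPM. mfng was higher on average, at 5.75 ± 1.01 CPM in morpholino larvae and 4.74 ± 0.489 CPM in controls, with overlapping groups and an edgeR adjusted p of 0.417.

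Ligand uptake and Numb adaptors. mib1, the ubiquitin ligase that ligands need to signal, had 55.4, 55.9 and 48.8 CPM in the morpholino libraries against 68.4, 66.9 and 59.0 CPM in the controls. All morpholino libraries lay below all controls, and the log2 fold change was -0.28 ± 0.08 without passing (edgeR adjusted p = 0.0749). numb, an endocytic adaptor known to restrain Notch after uneven cell divisions, had 21.4, 19.0 and 20.4 CPM in the morpholino libraries against 22.7, 23.0 and 22.0 CPM in the controls. Its groups did not overlap, and its log2 fold change of -0.15 ± 0.09 did not pass (edgeR adjusted p = 0.352).

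numbl, the Numb relative, changed its call with the way its rows were counted. The deposited table gives it 2 rows, numbl on chromosome 15 from 14436159 to 14552101 and numbl_1 with no position, whose lengths implied by counts and FPKM are 2653 and 2540 bases. The row numbl had 6, 9 and 4 counts in morpholino libraries 1 to 3, against 31, 46 and 35 counts in control libraries 1 to 3. The row numbl_1 had 143, 125 and 77 counts in the morpholino libraries, against 72, 53 and 62 counts in the controls. The row numbl thus held 4.03% to 6.72% of the gene's counts in morpholino libraries and 30.1% to 46.5% in controls, with no overlap. With rows tested as deposited, where 3.77% of all rows were called higher and 4.54% lower, numbl fell by 2.69 ± 0.36 on the log2 scale (edgeR adjusted p = 0.00203) and numbl_1 stood at 0.70 ± 0.23 (edgeR adjusted p = 0.1). Summed, the gene had 8.23, 6.98 and 5.10 CPM in the morpholino libraries and 7.13, 5.97 and 5.76 CPM in the controls. The summed groups overlapped, with a log2 fold change of 0.11 ± 0.19 (edgeR adjusted p = 0.792). The split between rows and the RNA level of the gene are separate measurements. The sequences of the 2 rows were not compared, and the cause of the split was not tested.

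**Figure D4:**
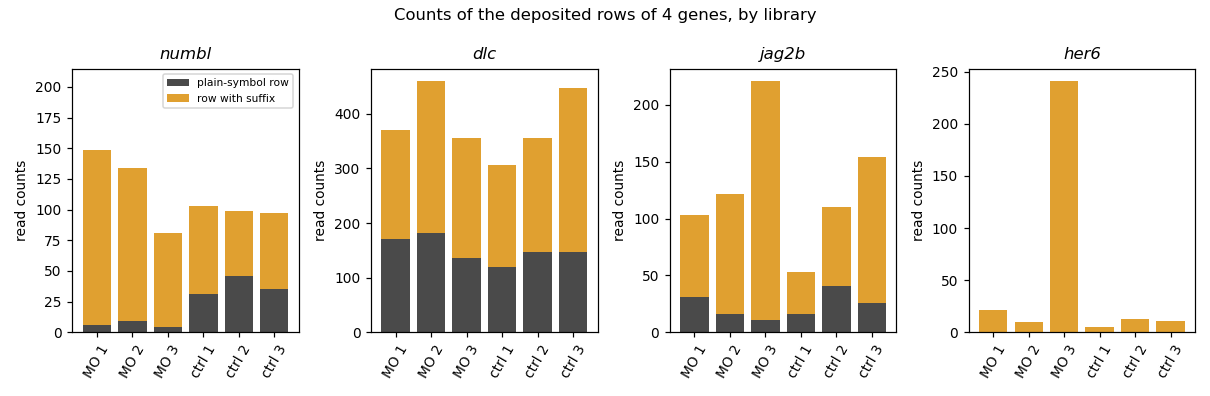
Read counts of the 2 deposited rows of numbl, dlc, jag2b and her6 in each library, stacked, with the plain-symbol row at the bottom and the suffixed row on top. For numbl the plain row shrinks to 4 to 9 counts in the morpholino libraries, against 31 to 46 in the controls; for her6 the suffixed row holds all counts and morpholino library 3 stands apart at 241.

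Of the other members with 2 rows, dlc kept a similar split, with 38.3% to 45.8% of its counts on the plain row in morpholino libraries and 32.9% to 41.3% in controls. Neither of its rows passed (log2 fold changes 0.09 ± 0.13 and -0.14 ± 0.16). The plain row of jag2b held 5.0% to 30.1% of its counts in morpholino libraries and 16.9% to 37.3% in controls, with overlap, and neither row passed. The plain rows of her6, her9 and heyl were listed at 0 in all 6 libraries, and their suffixed rows held every count.

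Nuclear cofactors. None of the 4 was called. The fold changes of the rbpj genes were positive and those of the maml genes negative, but the 95% intervals of rbpja and maml3 included 0. rbpja had 26.3, 24.2 and 27.2 CPM in the morpholino libraries against 26.5, 22.2 and 22.0 CPM in the controls, with overlap and a log2 fold change of 0.14 ± 0.10. rbpjb had 8.29, 6.41 and 8.00 CPM in the morpholino libraries against 5.54, 5.73 and 6.18 CPM in the controls. Its groups did not overlap, but the log2 fold change of 0.38 ± 0.16 did not pass (edgeR adjusted p = 0.194). maml1, a Mastermind coactivator, was lower in every morpholino library, at 18.2, 18.6 and 18.2 CPM against 21.7, 21.0 and 22.7 CPM in the controls, again without passing (log2 fold change -0.25 ± 0.09, edgeR adjusted p = 0.122). maml3 had a log2 fold change of -0.13 ± 0.08, with overlapping groups.

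Her, hes and hey genes. None of the 17 tested was called in edgeR or DESeq2, and none had an unadjusted p under 0.05 in edgeR. They were grouped by symbol, and which of them respond to Notch in these larvae was not tested. Of the 17 fold changes 7 were positive and 10 negative, with a median of -0.04. Over all 25 her, hes and hey genes, tested or not, TPM summed to 115, 120 and 142 in the morpholino libraries and to 119, 127 and 117 in the controls, with overlap. Of the sum in morpholino library 3, her6 gave 18.3 TPM, against 1.41 and 0.593 TPM in morpholino libraries 1 and 2. Without her6 the sums were 113.5, 119.1 and 123.9 TPM in the morpholino libraries and 118.5, 125.8 and 116.3 TPM in the controls. hey1, a target known from vessels, heart and brain, had 34.6, 33.6 and 34.2 CPM in the morpholino libraries against 29.6, 31.6 and 31.8 CPM in the controls. Its morpholino libraries all lay above the controls, with a log2 fold change of 0.14 ± 0.08 that did not pass (edgeR adjusted p = 0.317). hes6, which is expressed in cells that begin to differentiate as neurons, had 12.3, 18.8 and 14.2 CPM in the morpholino libraries and 13.8, 15.4 and 13.7 CPM in the controls. The control range lay inside the morpholino range, with a log2 fold change of 0.08 ± 0.15. hey2, known for arteries and the heart, had 0.21 ± 0.16, and her8a had -0.38 ± 0.19 with the morpholino libraries below the controls (edgeR adjusted p = 0.29).

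The her4 genes are known as Notch targets in neural progenitors and lie as 5 tandem copies beside her12 on chromosome 23, between 21444922 and 21471024. Such near-identical copies can share reads, so single copies are uncertain. Summed over copies, her4 had 286, 301 and 260 counts in morpholino libraries 1 to 3 and 272, 315 and 275 counts in control libraries 1 to 3. In TPM these were 15.8, 14.7 and 16.6 in the morpholino libraries and 19.1, 19.2 and 16.6 in the controls. Control library 3 and morpholino library 3 were practically level, and the summed gene did not pass (log2 fold change -0.18 ± 0.10, edgeR adjusted p = 0.347). her4.2 carried most of the reads and had a log2 fold change of -0.08 ± 0.12. her4.1 had 14, 13 and 18 counts in the morpholino libraries against 31, 22 and 16 in the controls, with overlap and a log2 fold change of -0.77 ± 0.39 (edgeR adjusted p = 0.29). her4.3, with 3, 3 and 0 counts in the morpholino libraries and 4, 16 and 12 in the controls, was too low to test.

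The her15 copies on chromosome 11, near her2, summed to 26.8, 29.2 and 31.3 TPM in the morpholino libraries and to 28.3, 27.4 and 28.1 TPM in the controls, with a log2 fold change of 0.08 ± 0.10 (edgeR adjusted p = 0.693). her2 had 0.04 ± 0.18 and her12 -0.12 ± 0.21. her13 and her8.2, which lie close together on chromosome 15, had log2 fold changes of -0.19 ± 0.19 and 0.01 ± 0.23. None of these genes separated the groups.

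her6 was decided by 1 library. It had 21, 10 and 241 counts in morpholino libraries 1 to 3 and 5, 13 and 11 counts in control libraries 1 to 3. Morpholino library 3 was far above the other 5, and morpholino library 2 lay within the control range. The log2 fold change of 3.19 ± 1.65 did not pass (edgeR adjusted p = 0.371), and without morpholino library 3 it was 0.47 (edgeR adjusted p = 0.705). In that library no other her, hes or hey gene stood apart by a similar margin. There her15.1 was at 14.9 CPM, her4.2 at 9.52 CPM and hey1 at 34.2 CPM, none of them the highest of its libraries. By contrast her15.2 at 6.49 CPM, her8.2 at 4.60 CPM and her4.4 at 3.15 CPM were highest there by small margins. The ligand gene jag2b was also highest there, at 13.9 CPM against 5.69 and 6.36 CPM in morpholino libraries 1 and 2. her9 was low throughout, with 8 to 25 counts in any library and a log2 fold change of -0.05 ± 0.44.

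The 8 members that were too low to test were her4.3, hes2.1, her3, her7, her1, heyl, her5 and her11. None exceeded 16 counts in any library. her1, her7 and her11, known from the somite clock of earlier embryos, had 6, 8 and 1 counts over the 3 morpholino libraries and 8, 12 and 5 over the 3 controls. No fold change is given for these genes.

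Levels of the her, hes and hey genes, per length, were led by her15.1 at 21.3 ± 1.62 TPM in morpholino larvae and 19.5 ± 1.27 TPM in controls. hes6 followed at 19.4 ± 3.61 and 18.7 ± 1.33 TPM, and hey1 at 16.6 ± 0.827 and 15.3 ± 0.895 TPM. her15.1 and hes6 overlapped in both groups, so their order lies within the spread. In each control library both stood above hey1, but in morpholino library 1 hes6 had 16.2 TPM and hey1 17.2 TPM, so the order of hes6 and hey1 in morpholino larvae also lies within the spread.

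Other genes of the pathway, outside the symbols above, were mostly not called either. Of 49 listed genes for receptor cleavage, sugar transfer, ligand uptake and nuclear repression, 48 were in the table and 47 were tested. Of these, 0 rose and 1 fell in edgeR, with 5 higher and 6 lower at an unadjusted p under 0.05 and a median log2 fold change of -0.02. Over all symbols edgeR called 2.88% higher and 3.31% lower, and 21.7% had an unadjusted p under 0.05 in either direction. DESeq2 called 0 of the listed genes higher and 2 lower. nrarpa, a feedback inhibitor that Notch switches on, had 0.09 ± 0.09 (edgeR adjusted p = 0.571). nrarpb, of the same list, lay in the other direction at -0.11 ± 0.15 (edgeR adjusted p = 0.729).

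Lists of cells in which the pathway is known to act were read beside the members. The edgeR shares over all symbols were 2.88% called higher, 3.31% called lower and 21.7% with an unadjusted p under 0.05. Of 17 proneural and neuronal commitment genes tested none passed in edgeR or DESeq2, with 0 higher and 2 lower at an unadjusted p under 0.05 in edgeR, a median log2 fold change of -0.05 and a summed level of 267 to 275 TPM in morpholino libraries and 276 to 296 TPM in controls. Of 15 genes of differentiated neurons 1 fell, stmn2b, a stathmin of growing axons (log2 fold change -0.62 ± 0.13, edgeR adjusted p = 0.022), with a list median of 0.10 and 8 of 15 fold changes positive. At an unadjusted p under 0.05 in edgeR 3 of these genes were higher and 2 lower, and DESeq2 called 1 higher and 1 lower. The one higher in DESeq2, named after its value was seen, was sv2a, a synaptic vesicle protein (log2 fold change 0.20, DESeq2 adjusted p = 0.0344). Of 9 tested somite and muscle progenitor genes none passed in edgeR or DESeq2, with 0 higher and 2 lower at an unadjusted p under 0.05 in edgeR, a median of -0.15 and a summed level of 61.8 to 64.4 TPM in morpholino libraries against 67.1 to 73.3 TPM in controls. Of these somite markers mespaa was at 0 in all libraries. The summed levels of the proneural and somite lists are weighted towards their most abundant genes and include listed genes too low to test. Of 15 hair and supporting cell genes 2 fell, tecta, which encodes a matrix protein of the ear (-1.37 ± 0.24), and sox21b, a SoxB transcription factor (-0.59 ± 0.15), while the list median was 0.19 and 12 of 15 fold changes were positive. At an unadjusted p under 0.05 in edgeR 2 of this list were higher and 2 lower, and DESeq2 called 0 higher and 1 lower, which was tecta.

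The precision of these libraries sets what could have been seen. The standard errors of the 40 tested members ran from 0.07 to 1.65 on the log2 scale, with a median of 0.14, and the median over all symbols was also 0.14. The 95% interval lay within a 2-fold change in either direction for 36 of 40 members (90%), against 80% of all symbols. It was wider for jag2b, her6, her4.1 and her9. Within a 1.5-fold change it lay for 28 of 40 members, against 12943 of 22247 symbols. Absolute log2 fold changes were under 0.5 for 38 of 40 members (95%), against 86.6% of all symbols. Coefficients of variation between libraries had a median of 7.7% in morpholino larvae and 10.6% in controls.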

How the data were processed

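Read counts, FPKM and TPM per row, so named in the column headers, were deposited by the authors for 53709 rows and 6 libraries. Whether the counts are raw or estimated is not stated in these headers. FPKM values are by definition scaled by row length and library. The deposited TPM values sum to 1e+06 in each library. HISAT2, StringTie 1.3.1, RSEM and the GRCz11 build are named without a role in the submitters' processing notes, and strand handling is not stated, so antisense reads were not told apart. Rows were summed per symbol after a trailing number was removed. Symbols were filtered with filterByExpr (min.count 10, min.total.count 15), scaled with TMM and tested with edgeR 4.0.16 in R 4.3.3 (robust quasi-likelihood, no covariate), which was tested on simulated data. Standard errors are the absolute log2 fold change over the square root of F. DESeq2 1.42.0 served as an alternative. FPKM served only for row lengths. List symbols were matched directly or by a RefSeq synonym (GRCz12tu, names only).

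Members and lists were chosen with earlier results of these data known. Members named by rule were those called, those whose call changed with summing, and the 2 most abundant of each role; of the other lists, called genes with the smallest p; a called gene of the other pathway list is not reported here. Other members, nrarpa, nrarpb and vim were named after their values were seen. Promoter, protein and transcript sequences were not used here.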

Additional observations from a re-analysis of the deposited data

How the results depend on the processing

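The call of notch1a held in edgeR with rows as deposited, with RLE scaling, without a filter, with a minimum count of 50, with the replicate block and with tandem copies summed, and in DESeq2. Leaving out 1 library at a time gave 0 to 1 members called lower, and without control library 2 the call was notch1b in place of notch1a. Members called lower numbered 2 with rows as deposited (numbl at -2.69 and notch1a) and 2 with the replicate block (mib1 at -0.28, adjusted p = 0.0428, and notch1a). No member was called higher under any of these settings. Deviations of same-numbered libraries had correlations of -0.038, 0.058 and 0.016, and 2 of 3 morpholino libraries correlated best with their own number. With 3 libraries per group these values cannot decide whether the numbers are pairs. The main test did not pair them, and the replicate block gave 661 symbols higher and 701 lower.

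Over all symbols, 1119 rows were called lower with rows as deposited, and leaving out 1 library gave 272 to 477 higher and 307 to 593 lower. Of other pathway genes, DESeq2 called 2 lower, 1 was called higher without a filter and 1 with a minimum count of 50 (rbpjl), and leaving out 1 library gave 0 to 1 lower.

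Signs also turned for the members below and, of these values and the row of numbl, only the row of numbl was called. With rows as deposited dlc was 0.088 and jag2b -0.66. With the replicate block her8.2 was -0.0047 and her9 0.017. With copies summed her15 was 0.080, against -0.10 for her15.2 alone. Leaving out 1 library gave -0.011 to 0.082 for dla, -0.027 to 0.068 for dlb, -0.11 to 0.065 for dlc, -0.052 to 0.16 for dld and -0.11 to 0.74 for jag2b. It gave -0.070 to 0.23 for rfng, -0.051 to 0.28 for numbl, -0.11 to 0.21 for hes6, -0.29 to 0.030 for her12 and -0.020 to 0.088 for her2. It gave -0.20 to 0.17 for her8.2, -0.21 to 0.076 for her4.4, -0.22 to 0.083 for hes2.2 and -0.30 to 0.48 for her9. The cause was not tested. Of the 48 members, 8 had too few counts to be tested.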
